A study of Jaculus jaculus with 29 samples.

Results

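The genes described here build or cut the extracellular matrix of the brain: collagens, laminin chains, link proteins, lecticans, tenascins, fibronectin, the hyaluronan-binding protein Tnfaip6 and the ADAMTS proteases with their ADAMTS-like relatives. They were taken by a rule on names that was set with earlier results of these data known. It takes genes that the authors' deposited table calls by a Col, Lama, Lamb, Lamc, Hapln or Adamts symbol. Genes called Fn1, Bcan, Ncan, Tnc, Tnr or Tnfaip6 are also taken. The rule gave 72 of the 29170 genes of the count table, and all 72 were among the 17558 genes with enough counts to be tested. Another 17 genes carry such a name only in RefSeq, Vcan and Lama3 among them, and are not counted as members. Acan was not analysed here.

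The samples were punches of the supraoptic nucleus of Jaculus jaculus, a desert rodent, from which polyadenylated RNA was sequenced in 29 libraries. Control animals drank freely (10 libraries, 5 female and 5 male). Dehydrated animals had water restricted for 11 days (10 libraries, 6 female and 4 male), and Rehydrated animals were restricted for 7 days before 3 days of free water (9 libraries, 4 female and 5 male). All animals lived singly with dry food freely available. The libraries are named by group, a letter and a number, such as Control M01. The labels give no strain and no age.

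In the brain, lecticans such as brevican and neurocan bind long hyaluronan chains, link proteins hold that bond, and tenascin-R joins lecticans to one another. This lattice fills the space between cells and condenses around some neurons as perineuronal nets and around nodes of Ranvier. Collagen IV and laminins form the basement membrane of vessels and of the brain surface, fibrillar collagens lie in the meninges and around larger vessels, and ADAMTS proteases cut lecticans and trim procollagens.

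Total counts per library ran from 10797577 in Control M01 to 18856620, and levels are given in CPM, the usual unit that sets a count against the scaled library total. All 10 markers of magnocellular neurons, the cells of the labelled tissue, were measured, with Avp at a mean of 2090 CPM and Oxt at 839 CPM. Control M01 lay at -152 on the first principal component of all genes, and the other 28 libraries lay between -7.17 and 14.4. Its microglia markers summed to 584 CPM against a Control median of 196 CPM, and their part in the results below was not tested.

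Several libraries stood apart for the matrix genes themselves. Control M01 was the lowest Control library for 29 of the 72 genes and Control M06 for 19, and Dehydrated F03 was the lowest Dehydrated library for 20. Rehydrated M05 was the highest of its group for 31 of the 72, and Control F03 and Control F05 were the highest Control libraries for 18 and 15. In Control M01 the mean log2 CPM of the tenascins lay at -1.68 relative to the Control median, Fn1 at -1.14, the ADAMTS proteases at -1.03 and the lecticans at -0.90, while the fibril-forming collagens lay at -0.25. In Rehydrated M05 the fibril-forming collagens lay 1.12 above the Rehydrated median on the log2 scale and Fn1 lay 1.79 above it, while the lecticans were 0.29 above.

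**Figure D1:**
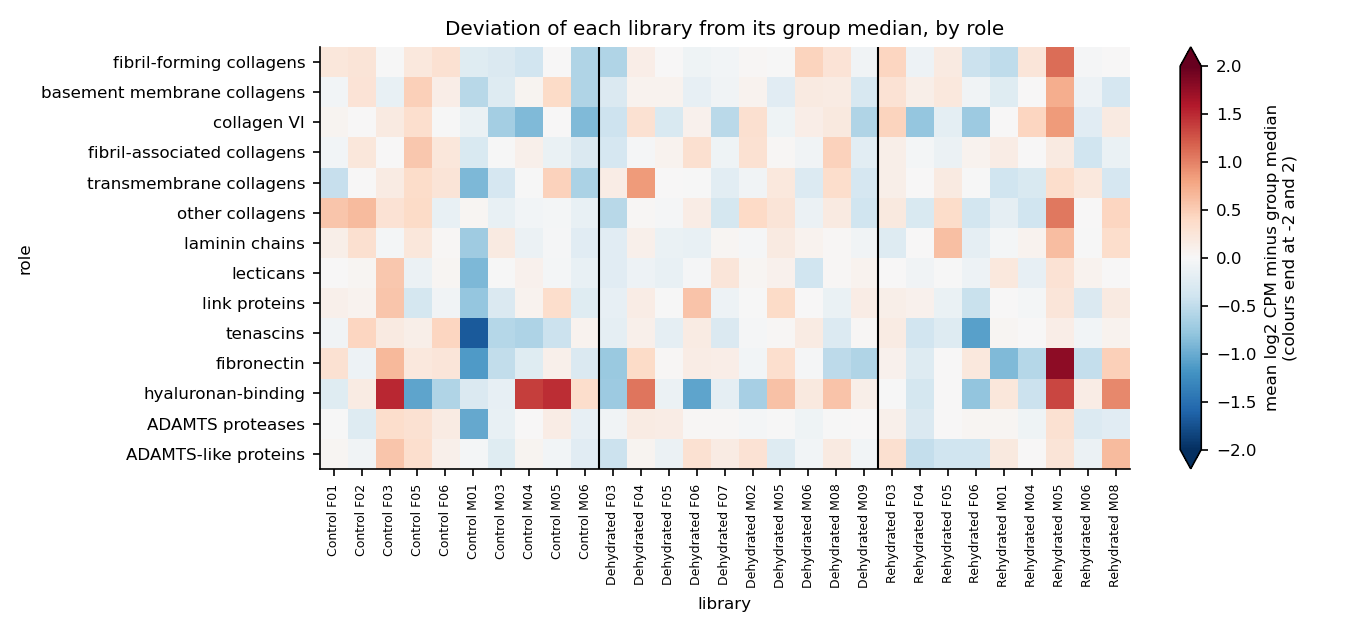
Each square gives the mean log2 CPM of the genes of a role (rows) in a library (columns) minus the median of that value over the library's group, with colours ending at -2 and 2. Control M01 is below its group for tenascins, lecticans and proteases, and Rehydrated M05 is above its group for fibronectin and fibril-forming collagens.

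Of the 72 genes, Col9a2 and genes of the hyaluronan lattice had the highest levels. On the scale of CPM per kilobase of exon, which allows genes to be compared, Bcan (brevican) stood first at a mean of 85.5 over all libraries. Col9a2, a chain of collagen IX, followed at 70.5, then Ncan (neurocan) at 63.7 and Hapln2, a link protein known from nodes of Ranvier, at 56.8. Lecticans gave 26.2% ± 2.58 (SD, n = 10) of the summed CPM per kilobase of the 72 genes in Control, 25.2% ± 3.01 (n = 10) in Dehydrated and 27.6% ± 2.61 (n = 9) in Rehydrated. Link proteins gave 15.4%, 14.9% and 14.1% in the same order, and the fibril-associated collagens, nearly all of it Col9a2, gave 16.4%, 13.1% and 12.3%.

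The next levels belonged to genes of several roles. Col25a1, a transmembrane collagen of neurons, was at 27.5 CPM per kilobase and Col23a1, another transmembrane collagen, at 12.7. Hapln4, a link protein that binds brevican near synapses, was at 24.7 and Tnr, the gene of tenascin-R, at 19.25. Adamts10, a protease tied to fibrillin microfibrils, was at 16.25 and Adamts4, an aggrecanase that cuts brevican, at 10.7. Lamb2, the laminin chain with the highest level per kilobase, was at 15.3 and Fn1 at 12.7.

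The remaining genes were lower. Among the 9 fibril-forming collagens the range ran from 1.27 CPM per kilobase for Col5a1 to 10.1 for Col11a1, with Col1a1 at 1.86, Col1a2 at 5.01, Col3a1 at 3.30, Col2a1 at 2.63, Col5a2 at 3.21, Col5a3 at 4.33 and Col11a2 at 4.82. The 7 basement membrane collagens spanned 1.35 (Col4a5) to 8.80 (Col18a1), with Col4a1 at 5.52 and Col4a2 at 4.36, and the 4 collagen VI chains spanned 0.282 (Col6a6) to 3.24 (Col6a2). Among the laminin chains Lama1 was at 0.472, Lamc1 at 6.17 and Lamb1 at 7.20, and the 18 ADAMTS proteases spanned 0.236 (Adamts12) to Adamts10. Tnfaip6 was at 1.08 and Tnc, the gene of tenascin-C, at 0.833.

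**Figure D2:**
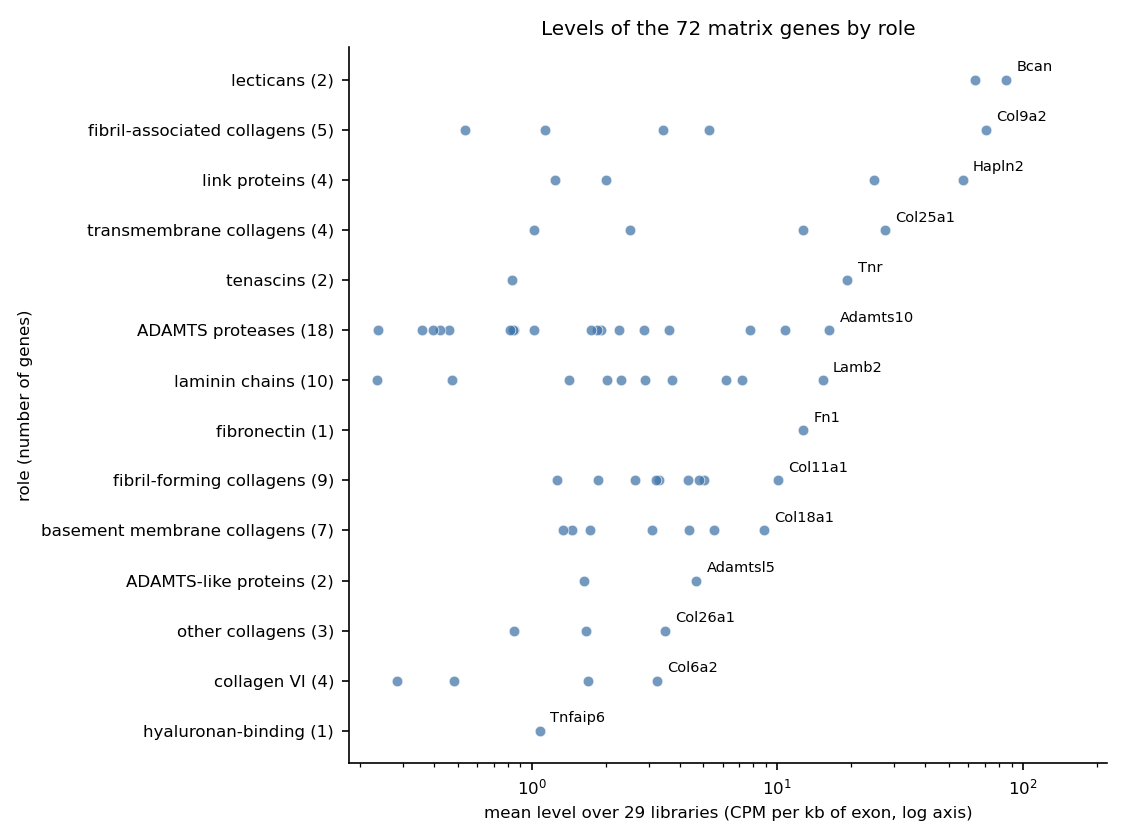
Each point is the mean level of a gene over the 29 libraries, in CPM per kilobase of exon on a log axis, with roles in rows and the number of genes in parentheses. Lecticans, link proteins and Col9a2 reach the highest levels, from 56.8 to 85.5, and most collagens, laminins and proteases lie below 10.1.

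Members differed in how far libraries of the same group spread. The median over members of the within-group SD of log2 CPM was 0.515, against 0.285 over all genes tested. Bcan had the lowest SD of the 72 genes, 0.192, and laminin chains had a median of 0.355. Collagen VI chains had a median of 0.677, and Col17a1 (1.22) and Adamts12 (1.05) were among the genes with the largest SDs.

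Several members lie side by side in the genome (assembly mJacJac1, Ensembl annotation). Hapln2 (chromosome 19, 59812213 to 59814429) ends 18845 bases before Bcan (chromosome 19, 59833275 to 59850561) on the same strand, with no annotated gene between. Hapln4 (chromosome 1, 222931285 to 222935043) and Ncan (chromosome 1, 222974727 to 223021168) face each other tail to tail across 39683 bases. Collagen IV chains form head-to-head pairs: Col4a2 (chromosome 3, 3004281 to 3165253) and Col4a1 (3165479 to 3316742) are 225 bases apart, Col4a3 and Col4a4 on chromosome 4 are 312 apart, and Col4a6 and Col4a5 on chromosome X are 1317 apart. In all, 11 neighbouring pairs of members lie within 100 kilobases of each other.

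Water restriction was compared with free water to ask how the matrix of the nucleus stands after 11 days. Under edgeR's quasi-likelihood test, with p adjusted over all genes by Benjamini-Hochberg, no member reached an adjusted p under 0.05, where 22 genes, or 0.125% of those tested, passed. At an unadjusted p under 0.05 there were 9 members, against 6.37% of all genes, and with 1 library left out at a time there were 5 (without Control F03, M01 or M05 or Dehydrated F05) to 11. Of the 9, 6 were lower in Dehydrated (Bcan, Tnfaip6, Col9a2, Col3a1, Col11a2 and Adamts9), against 3.7% of all genes, and 3 were higher (Lama5, Adamts3 and Adamts8). Without Control M01, 4 were lower and 1 higher, against 5.76% of all genes in either direction. Without Dehydrated F05, 5 were lower and 0 higher, against 5.57%. By DESeq2, Bcan and Tnfaip6 passed an adjusted p of 0.05, as did 0.176% of the genes it tested. The authors' deposited table, which has no column for Control M01, also puts these 2 members under 0.05, with 0.262% of its genes.

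As a group the members were shifted little. In Dehydrated against Control 44 of the 72 were lower, against 50.8% of all genes, and the median log2 difference was -0.04 against -0.003 over all genes. Without Control M01 the median was -0.10, and without Control F03 it was 0.003, so the sign of this median rests on single libraries.

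Bcan showed the smallest p of the members in edgeR's quasi-likelihood test, and Tnfaip6 the smaller of these 2 in DESeq2 and in the authors' deposited table. Bcan's level ran from 231.5 CPM (Control M06) through a median of 313 to 397.5 (Control F03) in Control. It ran from 195 through 246 to 258 in Dehydrated, and from 204 through 243 to 302 in Rehydrated. All 10 Dehydrated libraries lay below the Control median and 4 lay below every Control library, while the other 6 overlapped the lower Control libraries. The means were 306 ± 46.8 (SD, n = 10), 234 ± 23.6 (n = 10) and 255 ± 34.8 (n = 9).

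The log2 difference of Bcan was -0.38 (SE 0.084), and its adjusted p was 0.0656 in edgeR's quasi-likelihood test and 0.0112 in DESeq2. The authors' deposited table gives a log2 fold change of -0.38 with an adjusted p of 0.00778. Leaving out 1 library at a time, edgeR's adjusted p ranged from 0.0238 (without Control M06) to 0.176, and it was also under 0.05 without Rehydrated M04 (0.0483). In punches of whole tissue, fewer cells of a type and less RNA per cell cannot be told apart, here and in each result below.

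Tnfaip6, whose protein binds hyaluronan and helps to transfer other proteins onto it, had the largest difference of the members. In Control its level ran from 1.10 CPM (Control F05) through a median of 2.34 to 6.66 (Control F03). In Dehydrated it ran from 0.506 through 1.09 to 2.31, and in Rehydrated from 0.630 through 1.11 to 2.85 (Rehydrated M05). Control F03, M04 and M05 were high at 6.66, 6.14 and 6.53 CPM, the other 7 Control libraries lay between 1.10 and 2.98, and all 10 Dehydrated libraries lay below the Control median, 5 of them within the Control range. These levels rest on 8 to 107 counts per library.

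The log2 difference of Tnfaip6 in Dehydrated against Control was -1.43 (SE 0.32), with an adjusted p of 0.0749 by the quasi-likelihood test of edgeR and 0.00746 by DESeq2. The authors' deposited table gives -1.51 with an adjusted p of 0.00209. Without Control M01 edgeR's adjusted p was 0.0432 and without Dehydrated F04 it was 0.0189, while without Control M05 it was 0.37 and the difference was -1.14.

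**Figure D3:**
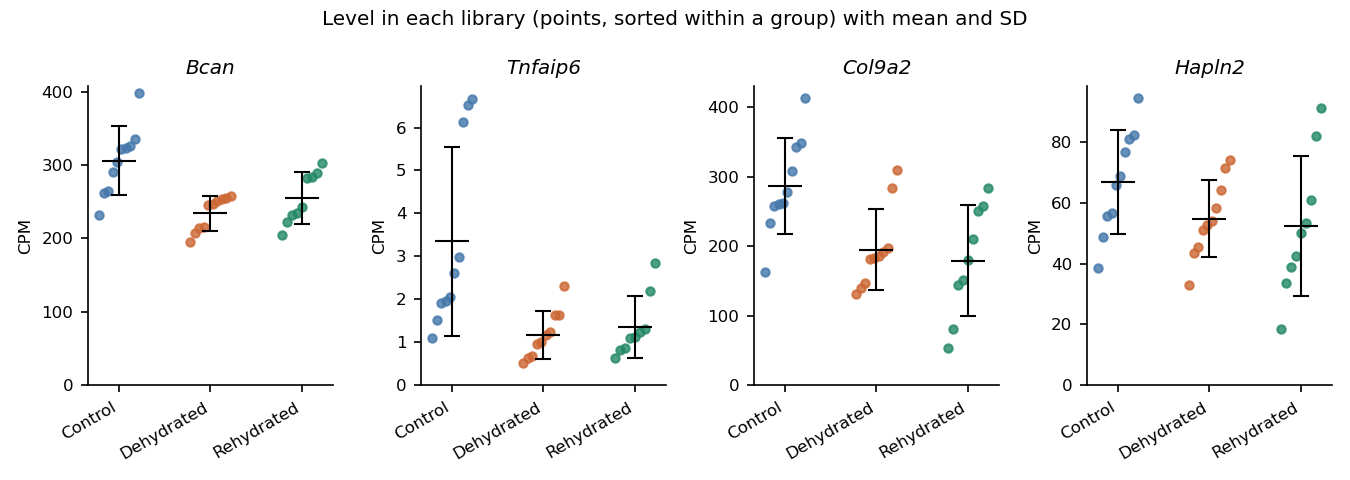
Points give the CPM of Bcan, Tnfaip6, Col9a2 and Hapln2 in each library, sorted within a group, with the mean and SD of the 10 Control, 10 Dehydrated and 9 Rehydrated libraries. Bcan is below the Control median of 313 CPM in every Dehydrated library, and Tnfaip6 is set apart in Control by 3 libraries above 6 CPM.

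Of the partners of Bcan in the lattice, none passed the test. Hapln2, next to Bcan on the chromosome, ran from 38.7 CPM through 67.5 to 94.8 (Control M01) in Control, from 33 through 53.5 to 74.1 in Dehydrated and from 18.4 (Rehydrated F05) through 50.1 to 91.2 (Rehydrated M05) in Rehydrated. Its Dehydrated libraries lay within the Control range in 9 of 10 cases and below the Control median in 8. The log2 difference was -0.27, with an adjusted p of 0.807 by edgeR's quasi-likelihood test. Hapln3 averaged 5.41 ± 2.09 CPM (SD) in Control and 3.92 ± 1.31 in Dehydrated (log2 -0.45, adjusted p 0.782 in edgeR), and Hapln1 averaged 2.67 and 2.42 CPM.

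Ncan, Hapln4 and Tnr had nearly the same means in Control and Dehydrated. Ncan averaged 331 ± 107 CPM in Control, with Control M01 at 94.3 and Control F03 at 534, and 327 ± 59.9 in Dehydrated (log2 -0.01, SE 0.16, and -0.11 without Control M01). Tnr averaged 97.5 ± 35 CPM in Control, where M01 was at 9.04, and 107.5 ± 9.14 in Dehydrated (log2 0.13, and 0.01 without Control M01). For Hapln4 the means were 31.7 ± 10.4 and 31.3 ± 8.08 CPM (log2 -0.02, SE 0.20, and -0.13 without Control M01). Vcan, the versican gene named through RefSeq, averaged 37.9 ± 8.45 and 38.9 ± 3.29 CPM.

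Brevican is made by cells of the oligodendrocyte lineage as well as by astrocytes, and Hapln2 by oligodendrocytes. All 7 measured markers of mature oligodendrocytes were lower in Dehydrated, none past the threshold, with a median log2 difference of -0.33, and their summed level was 2552 to 6506 CPM in Control (median 3778), 2348 to 6276 in Dehydrated (median 2766) and 1142 to 8127 in Rehydrated (median 3090). Mbp, Mobp and Opalin were not found under a name. Of the 8 progenitor markers 5 were lower, with a median of -0.14, and of the 10 astrocyte markers 3 were lower, with a median of 0.05. The part of these markers in the values of Bcan and Hapln2 was not tested.

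Among collagens, Col9a2 had the smallest p after Bcan and Tnfaip6. Its level ran from 163 through 270.5 to 413 CPM in Control, from 131.5 through 184 to 309 in Dehydrated and from 53.3 (Rehydrated F05) through 180 to 284 in Rehydrated. In Dehydrated 8 of 10 libraries were below the Control median, and 7 lay within the Control range. The log2 difference was -0.57 (SE 0.23), with an adjusted p of 0.669 by edgeR's quasi-likelihood test.

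Of the fibril-forming collagens 6 of 9 were lower in Dehydrated, with a median log2 difference of -0.22. Col3a1, the collagen III chain of vessel walls, and Col11a2, a chain of collagen XI, are named here after their values were seen. Col3a1 was below the Control median in all 10 Dehydrated libraries, with means of 22.8 ± 6.42 and 12.8 ± 4.55 CPM and Dehydrated F03 lowest at 3.69; the log2 difference was -0.82 (SE 0.37, adjusted p 0.744 in edgeR's quasi-likelihood test). Col11a2 averaged 41.6 and 26.9 CPM (log2 -0.64). The chains of collagen I gave -0.34 (Col1a1) and -0.32 (Col1a2), and Col11a1 gave 0.15.

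Markers of fibroblasts, the main source of fibrillar collagens around the brain, were split: 6 of 11 were higher in Dehydrated, with a median log2 difference of 0.02. Their summed level was 41.0 to 164 CPM in Control (median 109) and 23.7 to 178 in Dehydrated (median 97.4), with Dehydrated F03 lowest.

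Genes of the vascular basement membrane differed little in Dehydrated against Control. Col4a1 averaged 36.6 ± 13 CPM in Control and 31.8 ± 10.7 in Dehydrated (log2 -0.21, SE 0.23), and Col4a2 averaged 29.1 and 28.1 (log2 -0.08). Col18a1, which carries the endostatin fragment, averaged 58.6 and 57.7 CPM. Laminin chains split evenly, with 5 of 10 higher and a median of 0.02: Lamb1 averaged 39.3 and 40.9 CPM, Lamb2 85.3 and 87.6, and Lamc1 35.2 and 37.9. Lama5 was the chain with the smallest p, at 22.9 ± 4.50 and 28.2 ± 4.96 CPM, with 8 of 10 Dehydrated libraries at or above the Control median (log2 0.29, SE 0.12, adjusted p 0.72 in edgeR's quasi-likelihood test). Endothelial markers had a median log2 difference of -0.06 and mural markers of -0.05.

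Proteases went both ways, with 8 of 18 ADAMTS genes higher and a median of -0.02. Adamts4 ran from 26.7 through 40.9 to 73.6 CPM in Control and from 21.4 through 29.9 to 52.2 in Dehydrated. Its Dehydrated libraries were below the Control median in 9 of 10 cases and 4 were below every Control library (log2 -0.48, SE 0.25, adjusted p 0.78 in edgeR's quasi-likelihood test). Adamts10 averaged 68.6 and 71.2 CPM. Named after their values were seen, Adamts9 was below the Control median in all 10 Dehydrated libraries (5.68 ± 1.81 and 4.29 ± 1.15 CPM, log2 -0.44), Adamts8 gave 0.21 and Adamts3, which trims procollagens, gave 0.44.

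For Fn1, collagen VI and the remaining named collagens the differences were smaller than the spread between libraries. Fn1 averaged 101.5 ± 31.9 and 111 ± 28 CPM (log2 0.13, SE 0.26, and 0.05 without Control M01). Col6a1 averaged 7.72 and 6.12 CPM and Col6a2 18.1 and 16.4. Col25a1 averaged 92.6 ± 35.7 CPM in Control, with M01 at 8.09, and 103 ± 9.53 in Dehydrated (log2 0.14, and 0.01 without Control M01). Col12a1, whose Control M01 value was 15.7 CPM, averaged 55.8 and 58.1, Col23a1 31.4 and 34.8, and Col8a2 6.46 and 4.88.

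**Figure D4:**
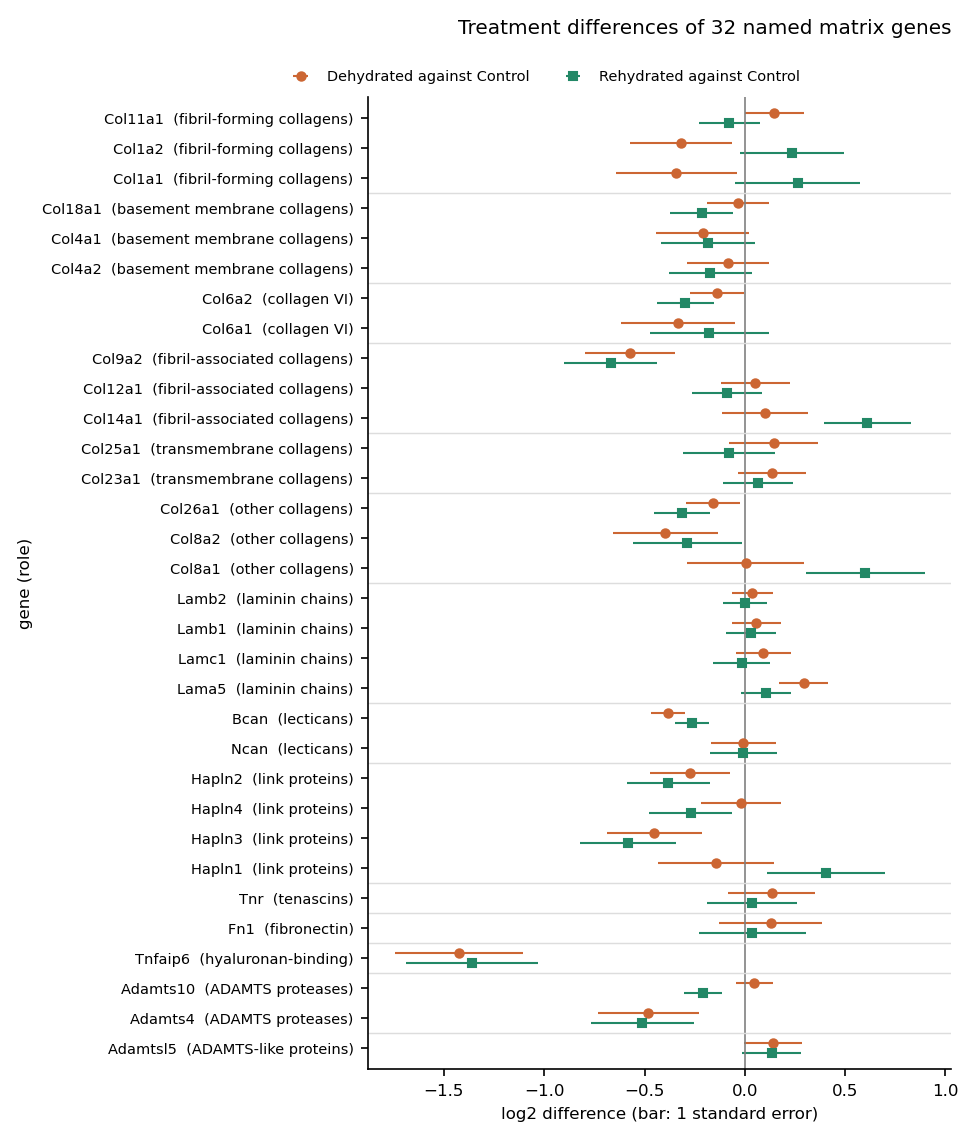
Points give the log2 difference of 32 named matrix genes in Dehydrated against Control and in Rehydrated against Control, and bars give 1 standard error. Tnfaip6, at -1.43 and -1.36, and Bcan, at -0.38 and -0.26, lie farthest from 0 for their errors in Dehydrated against Control.

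Genes that make, cut or bind the matrix were read from lists beside the members. Of 13 tested genes that synthesise hyaluronan or chondroitin sulfate, 9 were higher and 4 lower in Dehydrated. Only 1 passed the adjusted threshold, against 0.125% of all genes. This gene, Has3, a hyaluronan synthase, averaged 1.36 ± 0.698 CPM in Control, 4.51 ± 2.91 in Dehydrated and 1.44 ± 0.519 in Rehydrated (log2 1.66, adjusted p 0.041 in edgeR's quasi-likelihood test). Its Dehydrated libraries ran from 1.02 to 9.51 CPM and its Control libraries from 0.286 to 2.38, so the groups overlapped. Has1 averaged 2.90 and 2.98 CPM, and Has2 was too low to be tested. No gene passed among 10 basement membrane partners, 16 genes of collagen maturation, 16 of matrix breakdown and its inhibitors, and 20 matrix receptors, where edgeR gave 0, 2, 2 and 1 at an unadjusted p under 0.05, against 6.37% of all genes. In Rehydrated against either other group 0 genes of these 5 lists passed in edgeR's quasi-likelihood test, with 5 (against Control) and 3 (against Dehydrated) at an unadjusted p under 0.05, against 7.48% and 3.88% of all genes.

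Rehydrated animals were set against the same Control libraries. The 2 comparisons share those controls, so values are given side by side and not as support for each other. No gene of the 17558, and so no member, passed in edgeR's quasi-likelihood test (0.0%). By DESeq2 1 member, Tnfaip6, passed with 0.105% of the genes it tested, but no member passed in DESeq2 without Control M01. The authors' deposited table puts Tnfaip6 under 0.05, with 0.0228% of its genes.

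At an unadjusted p under 0.05 there were 13 members in Rehydrated against Control, against 7.48% of all genes, and 20 without Rehydrated M05, against 8.0%. Of the 13, 9 were lower, against 4.17% of all genes: Bcan, Tnfaip6, Col9a2, Hapln3, Tnc, Col6a2, Col6a6, Col26a1 and Adamts10. The 4 that were higher were Col14a1, Adamts7, Adamts8 and Adamts19. Without Rehydrated F04, 5 members were higher and 4 lower at this p, against 6.68% of all genes. With each library left out in turn, the number lower ran from 4 (without Rehydrated F04) to 17 (without Rehydrated M05). The excess of lower over higher members was thus absent without Rehydrated F04. In all, 47 of 72 members were lower, against 49.2% of all genes, and the median log2 difference was -0.08 against 0.003 over all genes. This median was -0.16 without Control M01, -0.19 without Rehydrated M05 and -0.04 without Control F05.

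Tnfaip6 and Bcan had the smallest p of the members in edgeR's quasi-likelihood test for Rehydrated against Control. In the authors' deposited DESeq2 table Col14a1 (unadjusted p 0.00062) came before Bcan (0.00312). Bcan was below the Control median in 9 of 9 Rehydrated libraries, with a log2 difference of -0.26 (adjusted p 0.553 in edgeR's quasi-likelihood test). Tnfaip6 was below it in 8 of 9 (log2 -1.36, SE 0.33), with an adjusted p of 0.37 in edgeR, 0.0413 in DESeq2 and 0.0444 in the authors' deposited table. Of the 4 link proteins 3 were lower, Hapln2 by -0.38, Hapln3 by -0.58 and Hapln4 by -0.27, and Hapln1 was at 0.40. For Hapln4, Control M01 was low at 8.66 CPM, and the authors' deposited table gives -0.39. Tnc, named after its values were seen, averaged 7.80 ± 3.37 CPM in Control and 5.04 ± 1.88 in Rehydrated, below the Control median in 9 of 9 libraries (log2 -0.62, adjusted p 0.624 in edgeR's quasi-likelihood test).

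Ncan and Tnr were again near their Control means in Rehydrated. Ncan averaged 329.7 ± 38.8 CPM (log2 -0.01) and Tnr 99.8 ± 13.8 (log2 0.04). Without Control M01 these differences were -0.12 and -0.11. Of the 7 oligodendrocyte markers 6 were lower, with a median of -0.45, and Rehydrated M05 had the highest and Rehydrated F05 the lowest sum; the same F05 library was lowest of its group for Hapln2, Col9a2 and Adamts4 (9.15 CPM). The part of these markers in the result was not tested.

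Leaving out Rehydrated M05 lowered the log2 differences of several vascular and fibroblast members, and changed the sign for Fn1 and Col1a1. Fn1 was at 297 CPM in this library and at 79.3 ± 24.4 in the other 8, which moved its log2 difference from 0.04 to -0.35 when the library was left out (-0.06 without Control M01). Col1a1 was at 35.9 CPM there and at 9.77 ± 5.11 in the other 8 (log2 0.26, and -0.08 without it). Col1a2 was at 70.0 CPM there (log2 0.24, and 0.00 without it), and Col3a1 at 73.2 (log2 -0.21, and -0.77 without it). Col4a1 was at 78.3 CPM there and at 26.1 ± 4.27 in the other 8 (log2 -0.18, and -0.49 without it). Fibroblast markers summed to 244 CPM in this library against a Rehydrated median of 62.1, and mural markers to 447 against 339.5; their part was not tested.

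Col9a2, Col6a2, Col26a1 and Adamts10 were lower in Rehydrated than in Control at an unadjusted p under 0.05, and none passed the adjusted threshold. Col9a2 gave -0.67 (adjusted p 0.571 in edgeR's quasi-likelihood test), Col6a2 -0.30, Col26a1 -0.31 and Adamts10 -0.21. Adamts4 gave -0.51, and -0.74 without Rehydrated M05, which was at 70.8 CPM. On the other side, Col14a1, which sits on the surface of collagen fibrils, averaged 3.03 ± 1.07 CPM in Control and 4.63 ± 1.47 in Rehydrated (log2 0.61, SE 0.22, adjusted p 0.571 in edgeR's quasi-likelihood test), with 2 of 9 libraries below the Control median. Col8a1, a short-chain collagen of vessels, gave 0.60, and 0.34 without Rehydrated M05, which was at 9.87 CPM. Lama5 gave 0.11 (0.04 without Control M01), Lamb2 0.00, Col25a1 -0.08 (-0.23 without Control M01) and Col18a1 -0.22.

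Rehydrated and Dehydrated libraries were compared last. No member passed in edgeR's quasi-likelihood test, against 0.0228% of all genes (4 genes), nor in DESeq2, against 0.0627% of its genes. At an unadjusted p under 0.05 there were 3 members, against 3.88% of all genes: Col1a2 (log2 0.55) and Col14a1 (0.51) were higher in Rehydrated and Adamts10 was lower. With 1 library left out at a time there were 2 to 8 (8 without Rehydrated F06). Adamts10 averaged 71.2 ± 8.91 CPM in Dehydrated and 59.0 ± 9.35 in Rehydrated (log2 -0.26, SE 0.094, adjusted p 1.0 in edgeR's quasi-likelihood test). Without Rehydrated M05, Col1a2 gave 0.32. In this comparison 42 of 72 members were lower, against 48.6% of all genes, and the median was -0.03. The log2 differences of Bcan and Tnfaip6 were 0.12 and 0.06. With a median SE over members of 0.22 in each treatment comparison (0.216, 0.223 and 0.224), differences of the size of most members were not detectable in these groups.

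Both sexes were in every group, so a difference between sexes and a difference of their responses could be tested. Of the members 0 passed between Male and Female libraries in edgeR's quasi-likelihood test, against 0.0342% of all genes, with 4 members at an unadjusted p under 0.05 (3.87% of all genes; 1 to 6 members with 1 library left out, 1 without Control F05 or M04), and 0 passed in DESeq2 (0.085% of its genes). No gene passed for a sex difference in the response to dehydration or to rehydration in edgeR (0.0% in each). DESeq2 put 0.0117% and 0.0% of its genes past, with 0 members.

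The 2 responses are set against the same Control libraries of each sex. Their values, here and by role and marker below, are thus not support for each other. At an unadjusted p under 0.05, 10 members differed between the sexes in the response to dehydration and 10 in the response to rehydration, against 6.05% and 6.18% of all genes. All 10 in each had a more positive response in males than in females, against 2.49% and 3.07% of all genes with a difference of that direction at this p. With 1 library left out at a time these counts ranged from 4 (without Control F05, Dehydrated F06 or Dehydrated M08) to 12 and from 6 (without Rehydrated F04 or F06) to 16 (without Rehydrated M01). Of the 72 members, 20 and 11 had a difference below 0, against 48.6% and 48.2% of all genes, and the member medians were 0.26 and 0.33 on the log2 scale against 0.008 and 0.012. With 1 library left out at a time, 15 to 23 and 7 (without Control F03) to 24 (without Rehydrated M05) members were below 0, with 22 in the second without Control M01 and 17 without Control M05. Without Control M01 the medians were 0.23 and 0.26, and without Rehydrated M05 the second was 0.20. For 3 libraries the labelled sex differs from the letter in the library name (Control F03, Control M05 and Dehydrated M02). By the letter the medians were 0.38 and 0.42, with 0 members past in either response. Control M01 and Control M06, the lowest Control libraries for 29 and 19 members, are both labelled male and enter both responses.

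By role, fibril-forming collagens had a more positive response in males in 9 of 9 cases for dehydration and in 8 of 9 for rehydration. The median sex differences in response were 0.62 and 0.78 (0.37 without Rehydrated M05). In level, 4 of these 9 were higher and 5 lower in males. Collagen VI chains had medians of 0.71 and 1.05. Basement membrane collagens had medians of 0.72 and 0.33 (-0.15 without Rehydrated M05), with 5 of 7 and 6 of 7 above 0. Col5a1, named after its values were seen, averaged 10.04 ± 3.69 CPM in Control females and 5.55 ± 0.985 in Control males, 7.78 ± 1.77 and 11.7 ± 3.91 in Dehydrated, and 6.58 ± 2.12 and 8.57 ± 3.60 in Rehydrated. The sex difference in its dehydration response was 1.45 (SE 0.37, adjusted p 0.811 in edgeR's quasi-likelihood test). Col6a2 averaged 21.1 ± 3.01 CPM in Control females, 15.1 ± 3.02 in Control males, 14.9 ± 3.11 in Dehydrated females and 18.6 ± 0.300 in Dehydrated males. In both genes the mean was higher in females than in males in Control, and higher in males than in females in Dehydrated.

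Fibroblast and astrocyte markers mostly had sex differences in response above 0, and they were not alone in this. Basement membrane partners were above 0 in 9 of 10 cases for dehydration and 8 of 10 for rehydration. Markers of fast-spiking interneurons were above 0 in 5 of 5 and 4 of 5, and those of oligodendrocyte progenitors in 3 of 8 and 7 of 8. The median sex differences in response of the fibroblast markers were 1.24 and 1.38, with 9 of 11 above 0 in each, 3 and 6 at an unadjusted p under 0.05, and none past the adjusted threshold. Of the astrocyte markers 10 of 10 and 9 of 10 were above 0, with medians of 0.32 and 0.29 (0.16 and 0.18 without Control M01) and 2 in each at an unadjusted p under 0.05. All 7 markers of mature oligodendrocytes were below 0 for dehydration and above it for rehydration (medians -0.34 and 0.33, the latter 0.06 without Rehydrated M05), and endothelial markers had medians of -0.03 and 0.05. The part of these markers in the sex differences of the collagens was not tested.

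Fixed pairs of genes were compared across libraries. They were chains of a collagen or of laminins, a link protein with a lectican, a collagen with a cell type marker, and collagen I with collagen IV. The values are correlations of log2 CPM over 29 libraries for 10 pairs, with permutation tests (100000 permutations) adjusted over the pairs; libraries of different groups are pooled, and all genes of a library share its dissection and depth. The chains of collagen IV, Col4a1 and Col4a2, moved together most closely (Pearson's r 0.87, adjusted p 5e-05; Spearman's rho 0.81, adjusted p 0.0001), with r of 0.92, 0.89 and 0.87 within Control, Dehydrated and Rehydrated. The unadjusted p of 1e-05 is the smallest these permutations can give. The chains of collagen I, Col1a1 and Col1a2, gave r 0.77 (permutation adjusted p 5e-05) and rho 0.72 (0.00015), and 0.75, 0.87 and 0.73 within the groups. Without the 2 libraries farthest from the median of the first gene, r was 0.83 for collagen IV and 0.62 for collagen I.

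Col1a1 also moved with Dcn, the gene of decorin and a fibroblast marker (r 0.71, permutation adjusted p 0.000167; rho 0.65, 0.000633; 0.74, 0.89 and 0.63 within the groups, and 0.51 without the 2 farthest libraries). Col4a1 and the endothelial marker Cldn5 gave r 0.21 (permutation adjusted p 0.291) and rho 0.20 (0.33). Col1a1 and Col4a1 gave r 0.40 (permutation adjusted p 0.0476) and rho 0.25 (0.325), but 0.01 without Dehydrated F03 and Rehydrated M05 and -0.38 within Control, so that relation rests on those libraries.

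Of the link proteins, Hapln2 moved with Bcan (r 0.54, permutation adjusted p 0.0058; rho 0.60, 0.00157; 0.53 without the 2 farthest libraries), with r of 0.68 within Control, -0.03 within Dehydrated and 0.66 within Rehydrated. For Hapln4 and Ncan, r was 0.47 (permutation adjusted p 0.0476) but rho was -0.06 (0.765), and r was -0.02 without Control M01 and Dehydrated F07 and -0.16 without Control M01 alone, so it rests on Control M01. Hapln1 and Vcan gave r 0.29 (permutation adjusted p 0.153) and rho 0.20 (0.33). Col6a1 and Col6a2 gave r 0.50 (permutation adjusted p 0.0106) and rho 0.49 (0.0166), with -0.07 within Dehydrated, and the laminin chains Lamb1 and Lamc1 gave r 0.03 (permutation adjusted p 0.882) and rho -0.20 (0.33).

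**Figure D5:**
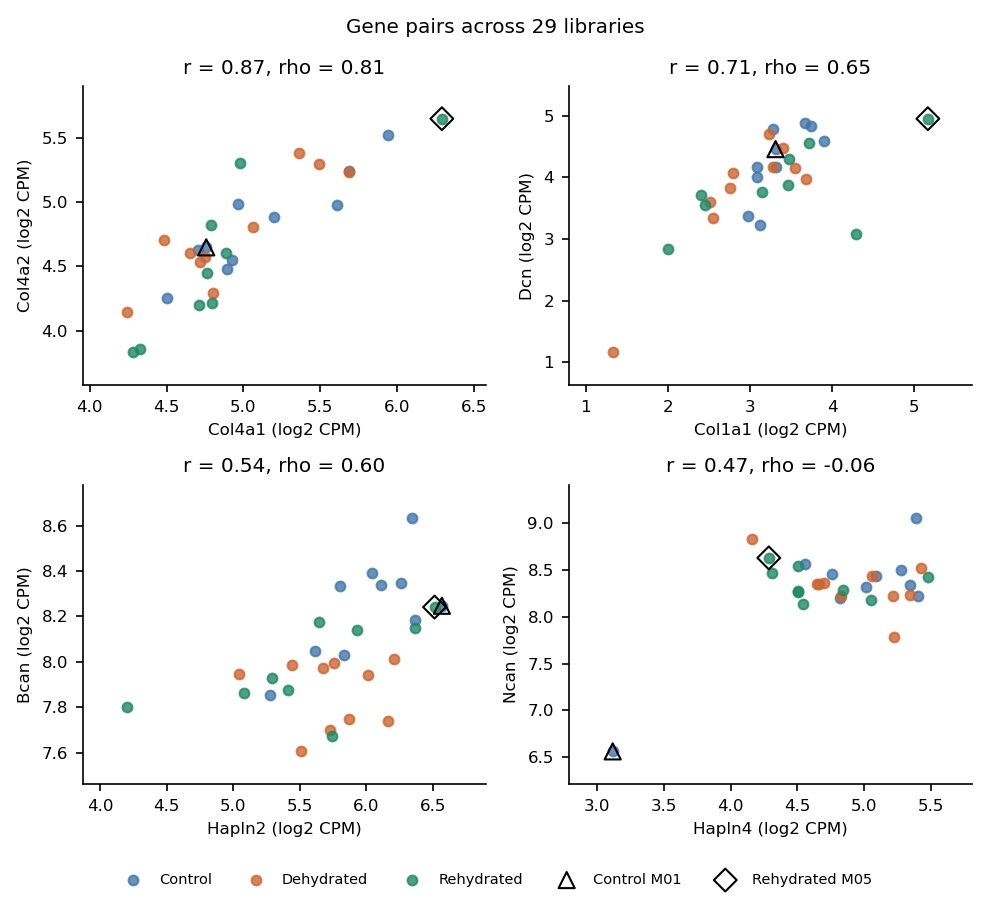
Points are the 29 libraries in log2 CPM, coloured by group, with Control M01 as a triangle and Rehydrated M05 as a diamond. Col4a1 and Col4a2 lie along a line (r 0.87), Col1a1 and Dcn and Hapln2 and Bcan spread more widely (r 0.71 and 0.54), and the relation of Hapln4 and Ncan hangs on Control M01.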

How the data were processed

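Polyadenylated RNA of supraoptic nucleus punches was sequenced in 29 libraries, treated as separate animals because the labels number them within groups, and p-values measure the spread between these libraries. Per the file headers, the authors made the deposited counts with featureCounts 1.6.2 on paired ends with no strand option, so reads of overlapping or antisense genes cannot be told apart. The submitters' processing notes list FastQC, featureCounts and DESeq2; the sources used here do not give the aligner. The authors' deposited tables hold log2 fold changes, p-values and adjusted p-values, which are quoted as theirs. The exon length of each gene comes from the deposited count table, and 56 per-library columns of the authors' tables were not used.

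Members took the symbols of the authors' table, joined by gene identifier; 67 have the same name in RefSeq and 5 had no match. A gene that also fits the naming rule, and the values of a member, are not reported here. Genes without an authors' name took a RefSeq name where at least 0.5 of both spans overlapped. Members, gene lists and tests were chosen with earlier results of these data known, so no test over the list was made. The genes named are the 4 with the smallest p in each treatment comparison, the 2 highest per kilobase in each role (1 where the role has 1 or 2 genes) and those of the fixed pairs; others are named as chosen after their values were seen.

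edgeR 4.0.16 in R 4.3.3 removed low genes with filterByExpr (11612 genes, 0.126% of counts), scaled by TMM and fitted a robust quasi-likelihood model of group and labelled sex to all 29 libraries (25 residual degrees of freedom), with Benjamini-Hochberg adjustment over 17558 genes. The standard error is the log2 difference divided by the square root of F. Sex differences in a response used a model of group by sex, and correlations used log2 CPM with a prior count of 0.5. The alternatives tried were RLE size factors, DESeq2 1.42.0, other filters and covariates, a fit to the groups compared alone, a replicate block and each library left out; the sex differences by name letter were added after seeing the data. On simulated data for Dehydrated against Control over the 17558 genes, 89% of 100 genes changed by 1 on the log2 scale and 99% of 100 changed by 2 were recovered, with 5.05% false among the calls. Counts of all 126 pairs within groups differed beyond sampling noise (chi-square of 8.73 to 158 for each degree of freedom), and no library was counted as a duplicate. Permutations and figures used Python 3.11.15 with numpy 2.4.6, pandas 2.3.3, scipy 1.17.1 and matplotlib 3.10.9.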

Additional observations from a re-analysis of the deposited data

Results flagged for a closer look

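In 10 of 96 group-by-gene sets of the 32 named members, the highest or lowest library lay apart from all others of its group by Dixon's criterion, which chance alone would meet in about 5% of sets. Control M01 was the lowest Control library in 6 of them: Col12a1 at 15.7 CPM against 45.7 in the next library, Col25a1 at 8.09 against 76.3, Hapln4 at 8.66 against 23.5, Lamc1 at 12.1 against 32.6, Ncan at 94.3 against 294, and Tnr at 9.04 against 69.2. Rehydrated M05 was the highest Rehydrated library for Col4a1, at 78.3 CPM against 31.5, and for Lamc1, at 51.0 against 36.7. Dehydrated M09 was the lowest Dehydrated library for Col14a1, at 1.56 CPM against 2.77, and Dehydrated F03 for Col1a1, at 2.48 against 5.69. No cause was tested.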

How the results depend on the processing

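The counts of calls depended on the test. Every median over the members kept its sign or moved by less than the spread between libraries, which was 0.214. That spread is larger than the treatment medians themselves (-0.04, -0.08 and -0.03), so this criterion could not show them to be stable. The first of them changed sign without Control F03. In Dehydrated against Control 22 genes and 0 members passed: DESeq2 gave 45 and 2, DESeq2 without Control M01 47 and 2, only the groups compared 11 and 0, no sex term gave 1 member, and an adjusted p under 0.10 gave 2. In Rehydrated against Control (0 and 0) DESeq2 gave 20 genes and 1 member, and 3 genes and no member without Control M01. In Rehydrated against Dehydrated (4 genes) DESeq2 gave 16, DESeq2 without Control M01 20, and only the groups compared 1. Between the sexes (6 genes) DESeq2 gave 20 and no filter on low counts 16, and for the sex difference in the dehydration response (0) DESeq2 gave 3 and the name letter 9. Leaving out 1 library at a time gave 10 (without Control F01) to 27 genes (without Dehydrated F07) and 0 to 1 members in the first comparison, 0 to 2 genes (2 without Rehydrated M05) in the second and 2 to 9 genes (9 without Dehydrated F07) in the last. The correlation of Hapln4 and Ncan reversed to -0.023 and -0.16 as given above; the cause was not tested. A replicate block by letter and number gave 7 genes in Rehydrated against Dehydrated and no member; same-named libraries correlated at -0.101 to 0.108, with 2 of 19 pairs over 0.1 and 4 of 23 libraries correlating best with their own name, so the names were not taken to pair the animals. Of the log2 differences of members, 10 alternatives brought one past the threshold, all of Bcan or Tnfaip6. The main fit called no member, so there was no call that an alternative could reverse. Low counts limit Tnfaip6, at 8 to 107 per library.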
